A study of Mus musculus with 2 samples.

Results

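Glycolysis is the chain of cytosolic enzymes that splits glucose into pyruvate, with lactate as a side exit, and 10 of its mouse genes were followed here across brain cell types. They are the hexokinases Hk1 and Hk2, the aldolases Aldoa and Aldoc, Tpi1, Gapdh, Pgk1, Eno1, Pkm and Ldha. The genes were chosen by name, not by their values, and all 10 had a column in both tables, which together list 25595 genes. Several steps are covered by isozymes, proteins of different genes that catalyse the same reaction, and cells differ in which isozyme they make. In brain, aldolase C is best known from astrocytes, hexokinase 1 from neurons and most other cells, and hexokinase 2 from tissues that respond to insulin and from immune cells.

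Single-cell RNA-seq was done on 2 libraries of dissociated mouse cortex with attached meninges, each passed through a magnetic sort for CD140a, the protein of Pdgfra. One is from N-PRα-KO mice, of genotype Nestin-Cre;Pdgfraflox/flox. The other is from WT mice of strain C57BL/6J. Nestin-Cre acts chiefly in the neural lineage. Age, sex and number of animals are not in the labels. The series asks about fibroblasts in a cortex short of myelin. With 1 library per genotype no difference between genotypes has a replicate check, and preparation, pipeline run, depth and genotype cannot be told apart.

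The N-PRα-KO table had 8336 barcodes and 41982217 UMIs (unique molecules), and the WT table had 11438 barcodes and 43459947 UMIs, with 105 barcode sequences in both. Cells with 300 genes or more and at most 25% mitochondrial UMIs were kept, less doublet calls, which left 4168 and 9896 cells with a median of 5775 and 3263.5 UMIs. The sorted antigen's gene, Pdgfra, was strongest in oligodendrocyte precursor (OPC)-like cells. It was at 3245 CPM (UMIs of a gene after all class totals are scaled to one common size) in N-PRα-KO and 4966 CPM in WT OPC-like cells, at 714 and 857 CPM in fibroblast-like cells, and at 23.9 and 131 CPM in astrocyte-like cells. The OPC-like class took up 1.37% of the N-PRα-KO library and 49.5% of the WT library, and the N-PRα-KO cells in it still carried Pdgfra UMIs.

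The comparison below uses 9 named classes, those that held 50 cells or more in each library. They were, with N-PRα-KO and WT cell numbers, astrocyte-like (668 and 1830), ependymal-like (497 and 347), neuronal lineage-like (246 and 934), OPC-like (57 and 4897), microglia-like (570 and 615), border macrophage-like (103 and 50), endothelial-like (536 and 347), mural-like (367 and 54) and fibroblast-like (943 and 504). The members were left out of the clustering. Clusters were mostly made of 1 library, so a class usually drew on different clusters in each: fibroblast-like cells came mainly from clusters 4 and 17 in N-PRα-KO and from clusters 14 and 23 in WT. Levels below are CPM summed over a class with exact Poisson 95% intervals, and all intervals cover counting error only.

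The clearest division of labour was between cell classes. Hk2 was concentrated in microglia-like cells and Aldoc in astrocyte-like cells. Both patterns were present in each library. Their promoters are shown here because these 2 members differ most between classes. They are RefSeq windows on GRCm38.p6, from 250 bases before to 50 after a transcription start, at chr6:82774405-82774704 on the minus strand for Hk2 and chr11:78322823-78323122 on the plus strand for Aldoc. Capitals mark ACGTG, the core letters bound by hypoxia-inducible factors, or GAGGAA, the core letters of PU.1-type ETS factors, on either strand.
Hk2: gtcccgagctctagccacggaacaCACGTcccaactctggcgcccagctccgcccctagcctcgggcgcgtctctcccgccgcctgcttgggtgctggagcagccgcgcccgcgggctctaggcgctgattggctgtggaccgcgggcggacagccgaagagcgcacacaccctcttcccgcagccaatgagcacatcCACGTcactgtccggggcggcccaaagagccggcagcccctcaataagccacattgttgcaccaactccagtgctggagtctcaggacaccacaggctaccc
Aldoc: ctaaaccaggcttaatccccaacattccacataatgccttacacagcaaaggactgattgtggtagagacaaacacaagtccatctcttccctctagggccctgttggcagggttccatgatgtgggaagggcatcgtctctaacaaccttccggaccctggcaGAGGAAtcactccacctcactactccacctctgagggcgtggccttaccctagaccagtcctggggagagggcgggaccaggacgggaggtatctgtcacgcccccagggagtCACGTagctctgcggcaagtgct
Hk2 has 1 listed start and Aldoc has 2, of which the window nearest the annotated gene start is printed. The Hk2 window held ACGTG 2 times and GAGGAA 0 times, and the Aldoc window held each 1 time. Over all 32851 mouse windows, 19.6% held ACGTG and 28.3% held GAGGAA, searched on both strands. Of the members' 18 windows, 9 held ACGTG, in 8 of 10 genes, and 3 held GAGGAA, in 3 genes. These matches describe letters only, since no binding was measured.

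**Figure D1:**
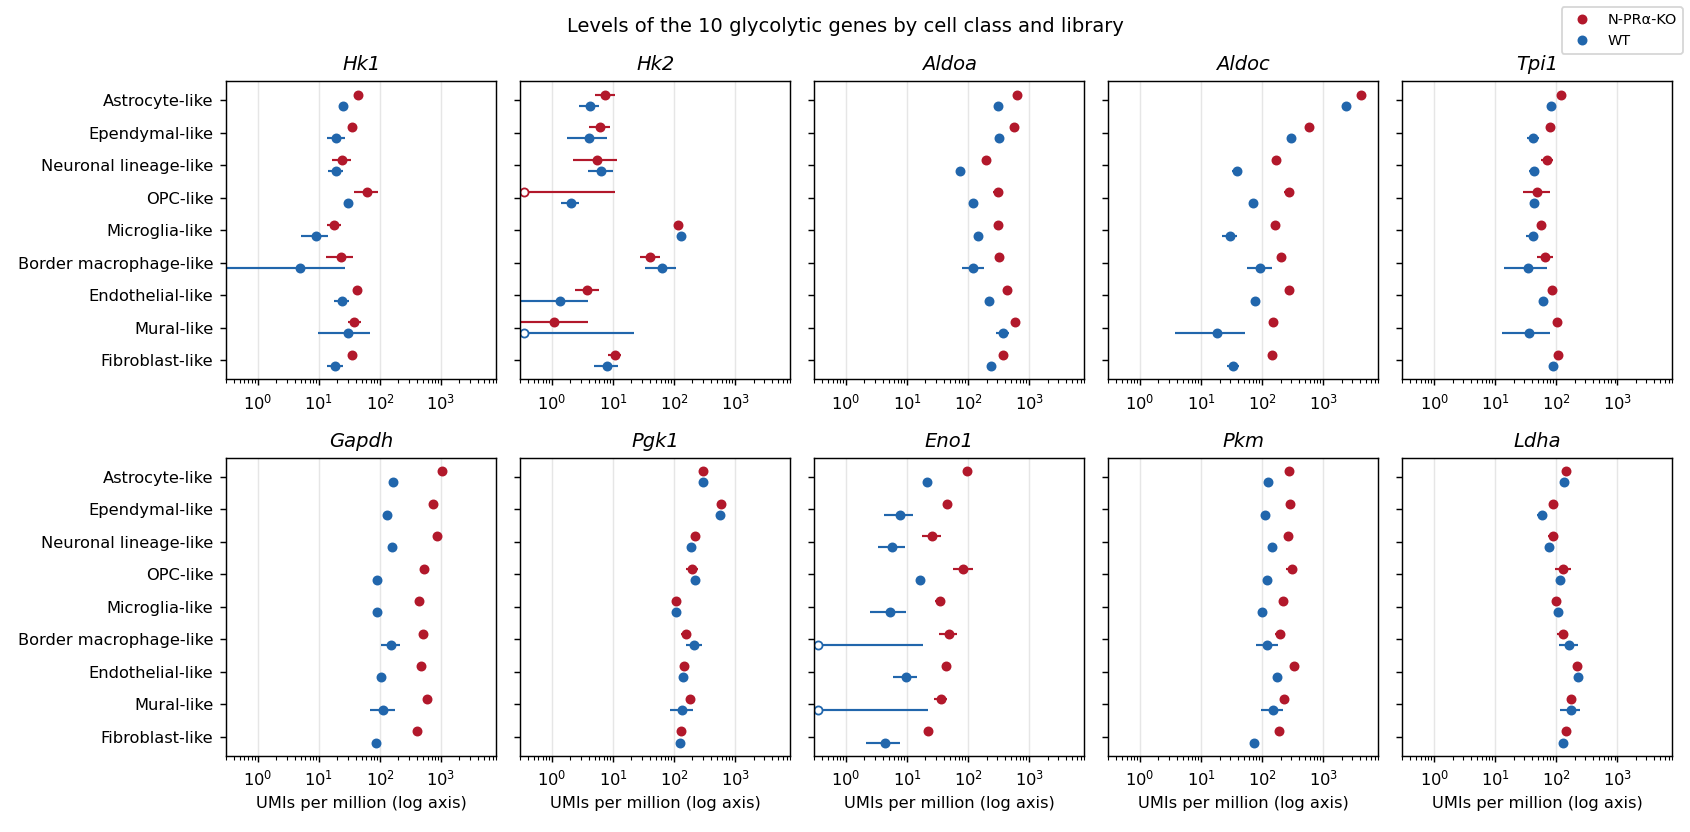
Levels of each gene (CPM, log axis) in 9 cell classes, with N-PRα-KO in red and WT in blue. Points are class sums, bars are exact Poisson 95% intervals, and open points at the left edge are classes with 0 UMIs. Hk2 stands out in microglia-like cells and Aldoc in astrocyte-like cells in both libraries, and the red points lie above the blue ones in every class for Gapdh and Eno1.

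Hexokinases phosphorylate glucose as it enters the cell. Hk2 (chr6:82725025-82774454, minus strand, GRCm38) was at 116 CPM (383 UMIs) in N-PRα-KO microglia-like cells and at 128 CPM (247 UMIs) in WT microglia-like cells. Border macrophage-like cells came next, at 40.8 CPM in N-PRα-KO and 63.4 CPM in WT. In the other 7 classes it lay between 0 and 10.6 CPM in N-PRα-KO and between 0 and 7.84 CPM in WT. The microglia-like interval lay above that of every other class in both libraries, while the low classes mostly overlapped one another. At an equal depth of 2000 UMIs per cell, a Hk2 UMI was seen in 21.1% (N-PRα-KO) and 20.4% (WT) of microglia-like cells, against 1.58% and 0.878% of astrocyte-like cells, a class with little Hk2. The 8 microglia markers summed to 23192 and 22428 CPM in microglia-like cells and to 97.1 to 4134 CPM elsewhere, with border macrophage-like cells at the top of that range.

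Hk1 (chr10:62268855-62379908, minus strand) ran the other way. It was highest in OPC-like cells, at 60.4 CPM in N-PRα-KO and 30.1 CPM in WT. Microglia-like cells had 17.6 and 8.79 CPM, the lowest of the 9 classes in N-PRα-KO, and in WT only border macrophage-like cells were lower at 4.88 CPM (1 UMI). Neighbouring classes overlapped throughout the order of Hk1 levels, so only the ends of that order stood apart. Across the 18 points (9 classes in 2 libraries), centred within each library, Hk1 and Hk2 had a Pearson r of -0.87. These points share libraries and the value is a description.

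As a share of Hk1 plus Hk2 UMIs, Hk2 made up 86.8% (83.3% to 89.9%, exact binomial 95% interval) in N-PRα-KO and 93.6% (89.9% to 96.2%) in WT microglia-like cells. Border macrophage-like cells had 64.4% (48.8% to 78.1%) and 92.9% (66.1% to 99.8%). Every other one of the 9 classes was at or under 29.9%, the value in WT fibroblast-like cells. These shares compare UMIs counted near the 3′ end, not protein. Hk3, a hexokinase of blood cells, was also found with the macrophages. It was at 36.6 CPM in N-PRα-KO and 14.6 CPM (only 3 UMIs) in WT border macrophage-like cells. Microglia-like cells had 22.5 and 10.3 CPM, and the other 7 classes at most 2.87 CPM.

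Aldolases cut fructose bisphosphate into triose phosphates. Aldoc (chr11:78322968-78327781, plus strand) had the widest range of any member that was detected in every class. It was at 4150 CPM in N-PRα-KO and 2384 CPM in WT astrocyte-like cells. Ependymal-like cells followed at 594 and 294 CPM. The remaining 7 classes lay between 146 and 276 CPM in N-PRα-KO and between 17.9 and 92.7 CPM in WT. The intervals of astrocyte-like and ependymal-like cells lay apart from each other and from the rest in both libraries, whereas the lower classes overlapped their neighbours.

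Aldoa (chr7:126795234-126800751, minus strand), the aldolase of muscle and most tissues, varied less. It ran from 195 CPM in neuronal lineage-like to 633 CPM in astrocyte-like cells of N-PRα-KO, with a median of 373 CPM over the classes. In WT it ran from 73.9 CPM in neuronal lineage-like to 370 CPM in mural-like cells, with a median of 217 CPM. A cluster that took no name, led by Nov, H19 and Slc47a1 (61 and 117 cells), had more than any of these classes, 810 and 455 CPM.

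The Aldoc share of Aldoa plus Aldoc UMIs was 86.8% (86.3% to 87.2%) in N-PRα-KO and 88.4% (88.0% to 88.9%) in WT astrocyte-like cells. In ependymal-like cells both aldolases were counted about equally, with Aldoc at 51.1% and 47.9%. Fibroblast-like cells had 28.1% and 12.4%, microglia-like cells 34.4% and 17.1%, and mural-like cells 20.7% and 4.62%. Outside astrocyte-like cells the share was thus higher in N-PRα-KO in 7 of 8 classes, border macrophage-like cells being the exception at 38.9% and 43.2%, with overlapping intervals.

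**Figure D2:**
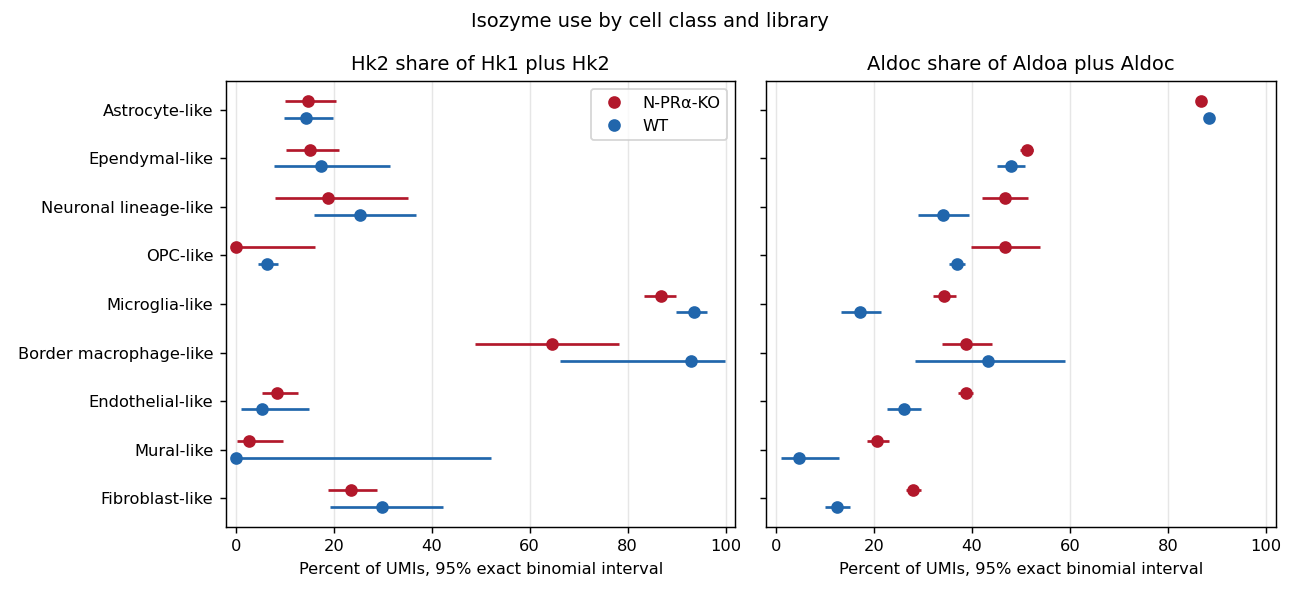
Share of UMIs from Hk2 among Hk1 plus Hk2 (left) and from Aldoc among Aldoa plus Aldoc (right), in percent, for 9 cell classes in N-PRα-KO (red) and WT (blue); bars are exact binomial 95% intervals. Hk2 leads only in microglia-like and border macrophage-like cells, and Aldoc exceeds 80% only in astrocyte-like cells.

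Astrocyte markers were found outside astrocyte-like cells too. The 10 astrocyte markers (Aqp4, Gja1, Slc1a3, Slc1a2, Gfap, Agt, Slc4a4, Ntsr2, Aldh1l1 and Fgfr3) summed to 32703 CPM in N-PRα-KO and 28331 CPM in WT astrocyte-like cells. In the other classes the sum was between 883 and 3240 CPM in N-PRα-KO, where all 10 markers had UMIs in every class. In WT it was between 510 and 4245 CPM. There Aldh1l1 and Fgfr3 were at 0 in mural-like cells, Agt at 0 in microglia-like cells, Agt and Aldh1l1 at 0 in committed precursor-like cells, which had the 510 CPM, and Aldh1l1 at 0 in the unnamed cluster. That cluster had the 4245 CPM, with Aldoc at only 21.7 CPM. For each 100 marker UMIs there were 12.7 Aldoc UMIs in N-PRα-KO and 8.41 in WT astrocyte-like cells. In the other classes the median was 16.0 in N-PRα-KO and 4.88 in WT. The marker sums of the 2 libraries thus overlapped while Aldoc per marker UMI was mostly higher in N-PRα-KO, and the part of free RNA in the low Aldoc levels was not tested.

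**Figure D3:**
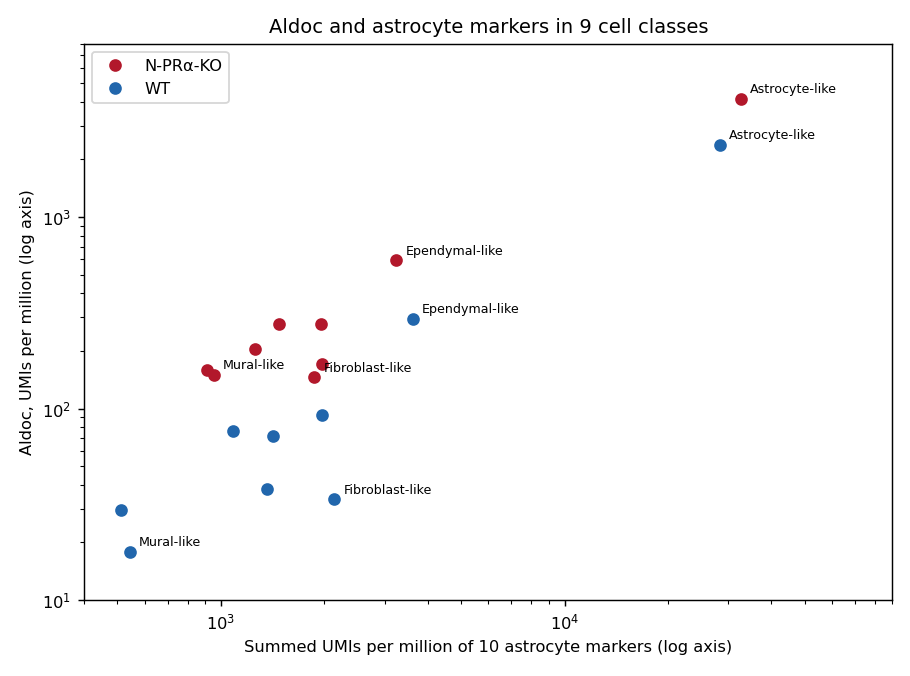
Aldoc level (CPM) against the summed level of 10 astrocyte markers, both on log axes, for 9 cell classes in N-PRα-KO (red) and WT (blue); each point is 1 class. Astrocyte-like cells stand far to the upper right in both libraries, and at similar marker sums the red points lie above the blue ones.

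After aldolase, triose phosphate isomerase (Tpi1, chr6:124810586-124814296, minus strand) interconverts the 2 trioses. Its levels spanned 48.9 CPM in OPC-like to 121 CPM in astrocyte-like cells of N-PRα-KO, with a median of 77.5 CPM. In WT they spanned 34.1 CPM in border macrophage-like to 89.7 CPM in fibroblast-like cells, with a median of 42.5 CPM. Astrocyte-like, fibroblast-like and, in N-PRα-KO, mural-like cells were at the upper end with overlapping intervals.

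Gapdh (chr6:125161715-125166467, minus strand), the dehydrogenase that feeds NADH out of glycolysis and is often used as a reference gene, was anything but constant between the libraries. In N-PRα-KO it ran from 403 CPM in fibroblast-like to 1037 CPM in astrocyte-like cells, with a median of 520 CPM. In WT it ran from 86.6 CPM in fibroblast-like to 166 CPM in astrocyte-like cells, with a median of 113 CPM. The lowest N-PRα-KO class was thus above the highest WT class, and the 2 ends of the order were the same classes in both. However, neighbouring classes overlapped throughout the WT order, and fibroblast-like and microglia-like cells overlapped at the low end in N-PRα-KO. The annotation holds 88 near-identical copies of the Gapdh transcript end, 86 of them pseudogenes. The 2 copies with columns took 3.05% and 3.16% of the combined UMIs, so counting may split part of the reads. What the copies without a column took cannot be read from these counts.

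Pgk1 (chrX:106187100-106203699, plus strand), the phosphoglycerate kinase that makes the first ATP of the pathway, was highest in ependymal-like cells among the 9 classes. It was at 582 CPM in N-PRα-KO and 568 CPM in WT ependymal-like cells. Astrocyte-like cells had 301 and 298 CPM. The lowest class was microglia-like in both, at 106 and 106 CPM, so the highest class had 5.47 times the lowest in N-PRα-KO and 5.38 times in WT. Among classes under 50 cells in a library, 49 oligodendrocyte-like WT cells had 578 CPM (520 to 641), 39 choroid plexus-like N-PRα-KO cells had 527 CPM (467 to 592) and 96 committed precursor-like WT cells had 401 CPM, so high Pgk1 was not limited to ependymal-like cells.

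Among the 9 classes, enolase 1 (Eno1, chr4:150236721-150248879, plus strand) was highest in astrocyte-like cells, at 97.5 CPM in N-PRα-KO and 21.3 CPM in WT. In both libraries the astrocyte-like interval overlapped that of OPC-like cells. The lowest N-PRα-KO class was fibroblast-like, at 22.4 CPM. WT border macrophage-like and mural-like cells had 0 Eno1 UMIs, with upper Poisson limits of 18.0 and 22.0 CPM. Its values are uncertain because a near-identical retrogene copy, Eno1b, took 45.8% and 43.7% of Eno1 plus Eno1b UMIs. Eno1b was also the gene most like Eno1 across the 18 points (r = 0.91). Eno2, the enolase of neurons, made up 34.3% of enolase UMIs, Eno1b included, in N-PRα-KO and 42.2% in WT fibroblast-like cells, against 5.71% and 4.70% in astrocyte-like cells, with intervals that did not overlap. Eno3, the muscle enolase, was at most 10.3 CPM in the 9 classes.

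Pyruvate kinase (Pkm, chr9:59656368-59679375, plus strand) was the most even member across the N-PRα-KO classes. It went from 192 CPM in fibroblast-like to 326 CPM in endothelial-like cells of N-PRα-KO, which is 1.70 times, and from 72.5 to 174 CPM between the same classes in WT. Its M1 and M2 splice forms share 1 column and cannot be told apart here. Pklr, the liver and red cell pyruvate kinase, was near 0 except in ependymal-like cells, with 30.9 CPM in N-PRα-KO and 21.2 CPM in WT. It was at most 1.52 CPM in the other 8 classes of either library.

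Lactate dehydrogenase A (Ldha, chr7:46841475-46855627, plus strand) turns pyruvate into lactate. Among the 9 classes Ldha was highest in endothelial-like cells, at 218 CPM in N-PRα-KO and 226 CPM in WT. Mural-like cells came next at 174 and 173 CPM, in WT with an interval that overlapped the endothelial-like one. The unnamed cluster had 239 and 187 CPM. Ependymal-like cells were lowest at 87.7 and 58.0 CPM, and in N-PRα-KO their interval (79.2 to 96.7 CPM) overlapped those of neuronal lineage-like and microglia-like cells. Ldhb, the subunit of oxidative tissues, was at 444 and 247 CPM in astrocyte-like and at 434 and 115 CPM in microglia-like cells. Ldhb made up 75.8% and 64.6% of lactate dehydrogenase UMIs in astrocyte-like cells but 24.8% and 11.3% in endothelial-like cells. In N-PRα-KO, 51 olfactory sensory neuron-like cells had Ldha at 53.4 CPM beside Gapdh at 1113 CPM and Pkm at 631 CPM. WT had 0 such cells, so this class has no counterpart.

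Phosphofructokinase, the committed step between the hexokinases and the aldolases, was not among the 10 genes but showed the same kind of division. Pfkm was at 241 CPM in N-PRα-KO and 106 CPM in WT astrocyte-like cells and made up 76.5% and 79.9% of their phosphofructokinase UMIs. Pfkl took its largest N-PRα-KO share in microglia-like cells, 47.4%. Pfkp made up 30.1% (26.6% to 33.7%) and 55.1% (47.0% to 63.0%) in endothelial-like cells, a share whose intervals did not overlap between the libraries. The last 500 transcript bases of Pfkp hold 34.6% GC, against 52.4% for Pfkl and 51.8% for Pfkm. Ratios between the libraries moved with GC content, as described below, and its part in this share was not tested.

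Genes whose class pattern was most alike were ranked by Pearson r over the same 18 points. For Hk2 these were Ptgs1 (r = 0.97), C5ar2 (r = 0.97) and Itgam (r = 0.97). For Aldoc they were Fam107a (r = 0.96), Sfxn5 (r = 0.96) and Gdpd2 (r = 0.96), and for Pgk1 they were Wwc1, Sod2 and Epb41l4a, with r from 0.95 to 0.96. Gnpda2, Pcnx and Trib2 were nearest to Hk1 (r from 0.90 to 0.92). Acadm, mt-Nd4 and mt-Co1 were nearest to Aldoa (r from 0.88 to 0.92). Rhoc, Ppard and Inpp1 were nearest to Ldha, and Timm8a1, Kcnn2 and Lix1 to Gapdh, with r from 0.83 to 0.90. Dhrs4, Id3 and Tspan9 were nearest to Tpi1 (r from 0.83 to 0.87), Emc6, Stard4 and Cdh2 to Pkm (r from 0.76 to 0.79), and Gabrg1 and Nim1k to Eno1 after Eno1b. Between members, Aldoc with Eno1 had r = 0.70, Gapdh with Pgk1 r = 0.66 and Aldoc with Pgk1 r = 0.65. The top genes were picked from the whole table on few points that share their libraries, so these are descriptions.

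Within astrocyte-like cells, clusters led by Thbs4 had lower levels of most members than the largest other cluster, in each library. In WT, 791 cells of cluster 2 (Tnc, Thbs4) had Pgk1 at 178 CPM and Ldha at 66.9 CPM, against 358 and 174 CPM in 766 cells of cluster 3 (Hapln1, Grm3, Aqp4). In N-PRα-KO, 241 cells of cluster 21 (Thbs4, Fam107a, Gfap) had 197 and 87.6 CPM, against 342 and 163 CPM in 424 cells of cluster 11 (Fgfr3, Slc1a2). Eno1 was at 7.85 against 29.1 CPM in WT and at 42.9 against 119 CPM in N-PRα-KO. Aldoc differed less, at 2143 against 2510 CPM in WT and 3346 against 4461 CPM in N-PRα-KO, while Pkm was about level, at 129 against 123 CPM in WT and 297 against 262 CPM in N-PRα-KO. The Thbs4 clusters were shallower, with a median of 2620 against 5166 UMIs in WT and 4138 against 5208 UMIs in N-PRα-KO. WT cluster 20 (256 cells, led by Slc1a2 and Hapln1) was shallower still, with a median of 1194 UMIs, and had Pgk1 at 352 CPM, Ldha at 127 CPM and Eno1 at 23.7 CPM, nearer to cluster 3 than to cluster 2.

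Clusters led by cell-division genes were set against the other clusters of their class and library. In neuronal lineage-like cells, Pgk1, Ldha and Gapdh were higher in the division-led cluster of each library. In N-PRα-KO, Gapdh was at 1153 against 482 CPM, Pgk1 at 298 against 119 CPM and Ldha at 119 against 48.4 CPM. In WT the levels were 191 against 99.9 CPM for Gapdh, 242 against 109 CPM for Pgk1 and 95.2 against 48.2 CPM for Ldha. In N-PRα-KO 3 of 9 measured members were at least 2-fold higher, where 17.3% of all genes were, and in WT 1 of 8 was, where 15.3% of all genes were. These 3 genes were thus higher in both libraries, but the WT count was near its background.

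Other classes differed from gene to gene. In N-PRα-KO microglia-like cells, Gapdh (603 against 421 CPM), Pgk1 (145 against 103 CPM) and Ldha (145 against 94.6 CPM) were also higher in the division-led cluster, the Pgk1 ratio with an interval that includes 0. In WT microglia-like cells the ratios of all 3 had intervals that include 0. In fibroblast-like cells Gapdh was at 567 against 390 CPM and Pgk1 at 193 against 123 CPM in N-PRα-KO. In WT they were at 107 against 77.6 CPM and 145 against 114 CPM, the Pgk1 ratio with an interval that includes 0. Of the measured members, 7 of 9 were higher in the division-led cluster in N-PRα-KO microglia-like and 7 of 9 in N-PRα-KO fibroblast-like cells, most of them by less than 2-fold. The median log2 ratio over all genes was 0.04 and 0.06 in these contrasts. In WT 3 of 8 measured members were higher in microglia-like and 4 of 8 in fibroblast-like cells, with all-gene medians of 0.02 and 0.07. The share of all genes higher by any amount was not counted. In N-PRα-KO, 1 of 9 members in microglia-like and 0 of 9 in fibroblast-like cells were at least 2-fold higher. The shares of all genes were 13.5% and 9.40%. In WT it was 0 of 8 in both classes, where 11.1% and 9.70% of all genes were. In WT OPC-like cells (686 division-led and 4211 other cells) Aldoc was at 37.6 against 80.3 CPM and Aldoa at 70.3 against 135 CPM, both lower in the division-led clusters. Of 8 measured members 0 were at least 2-fold higher, where 5.91% of all genes were. In microglia-like cells Hk2 was lower in the division-led cluster, at 21.4 against 124 CPM in N-PRα-KO (27 division-led cells) and 59.4 against 146 CPM in WT (90 cells). Fibroblast-like cells of the division-led cluster had less Aldoa, 175 against 388 CPM in N-PRα-KO and 133 against 283 CPM in WT. The difference between classes was not tested.

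The libraries were then compared within each class, using the log2 ratio (N-PRα-KO over WT) of each gene that reached 20 CPM in at least 1 of them. Over the 9 classes, 39 of 82 measured pairs of member and class were at least 2-fold higher in N-PRα-KO and 0 were at least 2-fold lower. In fibroblast-like cells, the class the series asks about, 4 of 9 measured members passed 2-fold, where 16.0% of all 7288 genes did. The members' median log2 ratio there was 0.91, beside -0.00 over all genes. The median ranged from 0.64 in mural-like to 1.32 in OPC-like cells. The share of all genes at least 2-fold higher was 14.0% in astrocyte-like, 16.7% in border macrophage-like, 17.2% in endothelial-like, 14.5% in ependymal-like, 16.3% in microglia-like, 11.7% in mural-like, 15.9% in neuronal lineage-like and 17.6% in OPC-like cells. The share at least 2-fold lower, in the same order, was 7.38%, 16.2%, 9.45%, 6.12%, 9.50%, 13.8%, 6.27% and 8.83%, and 8.12% in fibroblast-like cells.

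A GC difference between the libraries moved with these ratios. In fibroblast-like cells the median log2 ratio over all genes went from -0.42 in the quintile of genes with the least GC in the last 500 transcript bases to 0.89 in the quintile with the most, and 45.5% of genes in the latter were at least 2-fold higher in N-PRα-KO. Aldoa (55.4% GC), Gapdh (55.0%), Eno1 (55.6%) and Pkm (54.2%) lay in that top quintile. With the trend over all genes removed, 20 of the 82 pairs remained past 2-fold, and the median over the members ranged from 0.04 in microglia-like to 0.33 in fibroblast-like cells. In the latter 3 of 9 members were past 2-fold, where 9.84% of all genes were. Of all genes, 7.15% were then past 2-fold in astrocyte-like, 11.4% in border macrophage-like, 9.97% in endothelial-like, 7.21% in ependymal-like, 9.26% in microglia-like, 8.47% in mural-like, 7.65% in neuronal lineage-like and 10.5% in OPC-like cells.

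Gapdh had a log2 ratio of 1.75 in border macrophage-like to 2.64 in astrocyte-like cells, past 2-fold in 9 of 9 classes and in 7 of 9 with the GC trend removed (median 1.27). Eno1 had a median of 2.22 and was past 2-fold in 9 classes, then in 4 with the trend removed, with its 0 counts in WT border macrophage-like and mural-like cells set to 3 UMIs. Aldoa and Pkm had medians of 1.02 and 1.13, which became -0.13 and -0.04 with the trend removed, and passed 2-fold in 0 classes after it. Aldoc, which has only 41.6% GC, kept its ratio: the median was 1.95 as measured and 2.04 with the trend removed, past 2-fold in 8 of 9 classes either way. Its smallest ratio, 0.80 (0.77 to 0.83, exact conditional 95% interval), was in astrocyte-like cells, and its largest, 3.07 (1.51 to 5.36), in mural-like cells with 3 WT UMIs.

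The other members were closer to level. Ldha had a median log2 ratio of 0.07 (-0.34 to 0.60 over the classes) and Pgk1 of 0.04 (-0.46 to 0.43), with 0 of 9 classes past 2-fold in either direction. In fibroblast-like cells Pgk1 was at 128 and 123 CPM and Ldha at 143 and 129 CPM, with intervals of the log2 ratio from -0.14 to 0.24 and from -0.04 to 0.33. Tpi1 had a median of 0.57 and Hk1 of 0.80, each past 2-fold in 1 class. For Hk2, microglia-like cells gave -0.13 and border macrophage-like cells -0.63, both with intervals that include 0.

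Within the 7 named clusters that had 25 cells or more of both libraries, the ratios were as follows. Gapdh had a median log2 ratio of 2.40, Aldoc 2.34, Eno1 2.31, Pkm 1.09, Aldoa 0.96, Tpi1 0.95, Hk1 0.70 (6 clusters), Pgk1 0.30 and Ldha -0.12. Aldoc was lowest in endothelial-like cluster 26, at 0.39 (-0.01 to 0.80). Hk2 was measured in 2 of them, at -0.63 in the border macrophage-like cluster and at -1.47 (-3.22 to -0.05) in the division-led microglia-like cluster 28, which had 27 N-PRα-KO and 90 WT cells. The number of cells and their sharing between libraries were used to choose these clusters after the values by class had been seen.

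**Figure D4:**
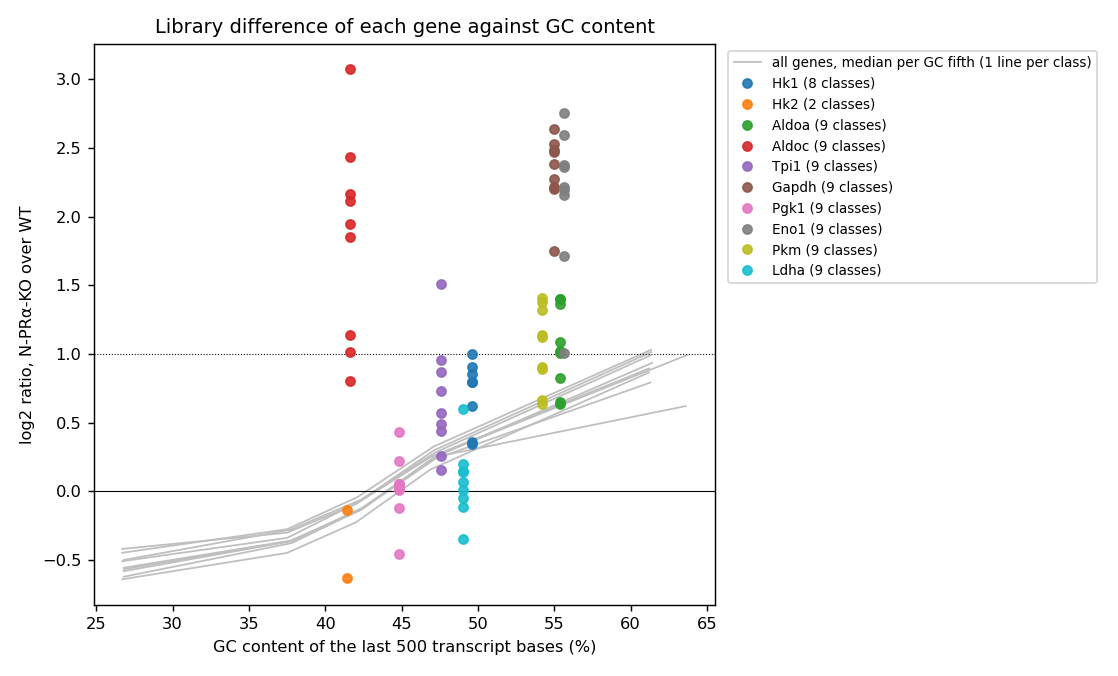
Log2 ratio (N-PRα-KO over WT) plotted against the GC content of the last 500 transcript bases, in percent; each coloured point is 1 gene in 1 of 9 classes, and grey lines join the medians of all genes per GC quintile, 1 line per class. The medians are drawn at the middle of each quintile's GC range, so the lines are not the trend that was removed. As drawn, Pkm and Aldoa lie near the lines or above them, Gapdh and Eno1 mostly higher, and Aldoc far above them. With the trend removed, the ratio was above 0 in 3 of 9 classes for Aldoa and 4 of 9 for Pkm. For Eno1, 2 points have a WT count of 0 set to 3 UMIs.

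Of 32 other genes of glucose and lactate handling that were listed, 31 had a column, and 13 were measured in fibroblast-like cells. Of these 6 were at least 2-fold higher and 2 at least 2-fold lower in N-PRα-KO, where 16.0% and 8.12% of all genes were. Isozyme partners of the members and the phosphofructokinase genes were left out of the ranking that follows. Among the rest, the 4 largest ratios were of Bpgm, Slc2a1, Gpi1 and Pdk1. Bpgm, bisphosphoglycerate mutase, was at 67.8 and 5.49 CPM. Slc2a1, the glucose transporter of the blood-brain barrier, was at 86.2 and 14.1 CPM. Gpi1, the isomerase after hexokinase, was at 97.7 and 33.7 CPM. Pdk1, a kinase that inhibits pyruvate dehydrogenase, was at 46.9 and 113 CPM. With the GC trend removed the log2 ratios of these 4 genes were, in the same order, 3.22, 2.20, 1.54 and -1.08.

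Again without isozyme partners and phosphofructokinase genes, Gpi1 and Slc2a1 were among the 4 largest ratios in microglia-like cells as well. Pfkfb3, which makes the activator of phosphofructokinase, was lower in N-PRα-KO (43.2 and 128 CPM). The last of the 4 was Slc16a7, a pyruvate and lactate carrier (24.3 and 44.0 CPM). There 6 of 16 measured genes were at least 2-fold higher and 1 at least 2-fold lower, where 16.3% and 9.50% of all genes were. In endothelial-like cells, Slc16a1, the lactate carrier MCT1, was at 1430 CPM in N-PRα-KO and 3971 CPM in WT, while Slc2a1 was at 1628 and 588 CPM, Gpi1 at 203 and 45.5 CPM and Bpgm at 44.0 and 12.6 CPM. Slc2a1 and Slc16a1 thus differed in opposite directions in the class that also had the most Ldha among the 9. With the GC trend removed the log2 ratios of Slc2a1 and Slc16a1 were 0.97 and -1.24. In astrocyte-like cells 6 of 16 measured genes were at least 2-fold higher and 0 at least 2-fold lower, where 14.0% and 7.38% of all genes were. With the same genes left out, the 4 largest ratios there were of Gpi1 (175 and 41.3 CPM), Bpgm (70.5 and 18.8 CPM), Slc2a1 (147 and 41.3 CPM) and Mpc2. Mpc2, a subunit of the mitochondrial pyruvate carrier, was lower in N-PRα-KO (97.0 and 186 CPM).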

How the data were processed

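The deposited values are raw counts of UMIs for each gene in each cell. Per the file headers, the authors' run used BD's WTA pipeline for Rhapsody (1.10 for N-PRα-KO, 1.10.1 for WT), GRCm38 and GENCODE M19; for the aligner, nothing is stated in these sources. Gene positions and transcript ends came from GENCODE M21 on the same build, and promoters from RefSeq. Cells with 300 genes or more and at most 25% mitochondrial UMIs were kept, which left 50.3% of the barcodes in N-PRα-KO (4196) and 88.0% in WT (10069). Doublet calls (28 and 173 cells) were removed, and 39 Leiden clusters were named from marker lists (scanpy 1.11.5, leidenalg 0.10.2), with the 10 members left out of the variable genes. A class kept a name only with a mean marker score of at least 0.5. Class sums of UMIs in each library were scaled to CPM, with exact Poisson intervals for levels, exact Clopper-Pearson intervals for shares and exact conditional intervals for ratios.

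Ratios used genes that reached 20 CPM in at least 1 library, with counts under 3 set to 3. The GC trend was the median log2 ratio over 20 bins of GC content. No test was made, since each genotype has 1 library. The calculation of ratios, intervals and the GC trend was tested on simulated data. All 10 members are named, with isozyme partners, the 4 other pathway genes with the largest ratio in each class described for them (fibroblast-like, microglia-like, endothelial-like and astrocyte-like), and the 3 genes most alike to each member. Of the genes that this rule names, 1 is not reported here. The members and lists were chosen with earlier results of these data known. Alternatives were other mitochondrial limits, doublets kept, thinning to 2000 UMIs, classes from marker UMIs, equal weight per cell, the GC trend removed, 100 CPM as the minimum, and CPM without mitochondrial and ribosomal protein genes.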

Additional observations from a re-analysis of the deposited data

Results flagged for a closer look

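In the WT library, 2 members had division-led ratios in opposite directions in neuronal lineage-like and OPC-like cells, with counting intervals on either side of 0. The log2 ratio of Aldoc was 0.85 (0.23 to 1.52) in neuronal lineage-like and -1.10 (-1.36 to -0.84) in OPC-like cells, a gap of 1.95. For Ldha it was 0.98 (0.54 to 1.45) and -0.32 (-0.49 to -0.16), a gap of 1.31. The difference was not tested, since each class has 1 WT library, and both the division contrast and the counting intervals were taken up for this after a first rule had picked 0 members. That rule asked for a member at least 2-fold higher in N-PRα-KO in one class and at least 2-fold lower in another.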

How the results depend on the processing

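No paired analysis was possible because each genotype has 1 library. The Aldoc share in N-PRα-KO astrocyte-like cells moved from 86.8% to 85.0% with a mitochondrial limit of 10% and to 86.0% with classes from marker UMIs. In WT it moved from 88.4% to 87.6% with cells thinned to 2000 UMIs, 87.7% with classes from marker UMIs and 87.6% with equal weight per cell. The Hk2 share in N-PRα-KO microglia-like cells moved from 86.8% to 90.9% with a mitochondrial limit of 10%, a limit that left under 50 WT cells of that class and under 50 fibroblast-like cells, so those values were not computed. Removing the GC trend moved the fibroblast-like median log2 ratio from 0.91 to 0.33 and the count of pairs of member and class at least 2-fold higher in N-PRα-KO from 39 to 20. With a mitochondrial limit of 10% that count was 4, since only 1 class kept 50 cells in both libraries. In cluster 23 alone, an alternative chosen after seeing the data, the fibroblast-like median was 1.02. Removing the GC trend also turned the medians of Aldoa (1.02 to -0.13) and Pkm (1.13 to -0.04) over the classes, as well as of Ldha (0.07 to -0.38) and Pgk1 (0.04 to -0.05). Of the shares, only Aldoc in astrocyte-like and Hk2 in microglia-like cells were recomputed under the alternatives, and both stayed above 80%. No class median of the members changed direction under the alternatives run, but both ends of their range shifted. The OPC-like median moved from 1.32 to 0.87 with cells thinned to 2000 UMIs. For mural-like cells it was 0.64 in the main setting and 0.97 with equal weight per cell. Depth limits Hk2, Hk1 and Eno1 outside their richest classes, where WT counts were as low as 0.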

Other observations

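Barcodes left out for more than 25% mitochondrial UMIs (2659 in N-PRα-KO and 851 in WT, each with 300 genes or more) had Aldoc at 1102 and 1059 CPM, above the 767 and 503 CPM of the barcodes kept. Gapdh was at 430 CPM in the N-PRα-KO and 142 CPM in the WT barcodes left out, beside 623 and 113 CPM in those kept, so the library difference in Gapdh was present there too. Pgk1 was at 138 CPM and 223 CPM in the barcodes left out. These totals include the mitochondrial UMIs by which the barcodes were chosen. With mitochondrial UMIs taken out of the totals, Gapdh was at 953 and 215 CPM in the barcodes left out and at 729 and 131 CPM in those kept. Pgk1 was then at 306 and 338 CPM in the barcodes left out and at 282 and 275 CPM in those kept. On the same totals, Aldoc was at 2441 CPM in the N-PRα-KO and 1605 CPM in the WT barcodes left out. In those kept it was at 897 and 583 CPM. Hkdc1, a hexokinase-like gene next to Hk1, was at 17.2 CPM in N-PRα-KO and 4.54 CPM in WT ependymal-like cells and at most 0.392 CPM in the other 8 classes.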
